A study of Mus musculus with 81 samples.

Results

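The Ifi200 family is a group of 10 mouse genes of the PYHIN class, taken here by symbol as Ifi203, Ifi204, Ifi205, Ifi206, Ifi207, Ifi208, Ifi209, Ifi211, Ifi213 and Mndal, and all 10 were found under 1 identifier each among the 55603 genes listed in the gene count tables. The tables came from 81 RNA-seq libraries of macrophages from mice with and without a targeted deletion of the genes of the replacement histone H3.3. Of these, 79 could be placed in a group from their labels. Wild-type (WT) mice carried floxed alleles of both H3.3 genes (H3f3a fl/fl H3f3b fl/fl). H3.3cKO (cKO) mice carried the same floxed alleles together with LysM cre/cre, a Cre recombinase inserted into both copies of the lysozyme gene Lyz2, which deletes in myeloid cells and leaves the mouse without Lyz2. The mice were young adults of both sexes on a C57BL/6 background, and replicates were separate mice per the study's methods. Bone-marrow-derived macrophages (BMDMs) were grown in L929-conditioned medium.

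The groups of 3 libraries each were cultures of both genotypes harvested on day 3, day 5 or day 7; peritoneal macrophages of both genotypes; WT and cKO cultures grown with no antibody, with an isotype control antibody or with an antibody against the type I interferon receptor chain IFNAR1; WT and cKO BMDMs in 3 further sets; and cKO BMDMs that also lacked Sting (cKO:StingKO), Mavs (cKO:MavsKO) or Irf7 (cKO:Irf7KO). A day 8 experiment held 3 untreated WT libraries, 2 untreated cKO libraries, 3 WT libraries treated with IFNγ for 12 h and 2 treated cKO libraries. STING and MAVS are adaptors that link the sensing of cytosolic DNA and RNA to interferon production, and IRF7 is a transcription factor of type I interferon genes.

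PYHIN proteins combine a pyrin domain, through which they bind each other and other signalling proteins, with a HIN domain that binds DNA, and several members have only the pyrin domain. They sense DNA or act in the nucleus on transcription and growth, and AIM2, the best known relative, builds an inflammasome on cytosolic DNA. The mouse family is larger than the human one, lies in one cluster, and is known as a target of interferons, whose receptors act on genes at interferon-stimulated response elements (ISREs) and gamma-activated sites.

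All 10 genes lie on chromosome 1 (GRCm38) between positions 173468485 and 174031810, a stretch of 563 kb, in the order Ifi206, Ifi213, Ifi209, Ifi208, Ifi207, Ifi204, Mndal, Ifi211, Ifi203 and Ifi205. Ifi209 and Ifi208 are on the plus strand and the other 8 on the minus strand. The targeted gene H3f3a is on the same chromosome, 6.77 Mb from the last member. The members are similar copies, so some reads could not be assigned to 1 gene. In the GENCODE M21 transcripts, 72.8% of the 50-base words of Ifi211 also occurred in another gene, most often Ifi205, and the share was 33.7% for Ifi209, mostly with Ifi214. It ranged from 7.29% in Ifi207 to 25.6% in Ifi206 for the remaining 8 members. The count of each gene therefore rests on its distinct part, and the values of Ifi211 are the least certain. The annotated span of Mndal covers Ifi211 and Ifi203, but only 37 exon bases of Ifi203 are shared with it.

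Promoter windows of 300 bases (250 before to 50 after the RefSeq start site, GRCm38.p6) were given for 9 of the 10 members. The ISRE letters, GAAA followed by NN and a second GAAA, were searched on both strands. They were present in the windows of 8 of those 9 genes, against 3.99% of all 27025 genes. By window they were in 9 of the 11 member windows, against 3.44% of all 32851 windows. The gamma-activated site letters TTCNNNGAA were in 0 of the 11 member windows and in 8.3% of all windows. These stretches are shown because 8 of them carry the same element in the same orientation, between 35 and 134 bases before the annotated start. The capitals mark the element, and each stretch reads along the strand of its gene.
Ifi206, chr1:173491324-173491383, minus strand: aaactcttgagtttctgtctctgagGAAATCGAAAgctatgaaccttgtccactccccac
Ifi213, chr1:173599311-173599370, minus strand: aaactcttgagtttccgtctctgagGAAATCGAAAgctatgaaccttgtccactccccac
Ifi208, chr1:173673582-173673641, plus strand: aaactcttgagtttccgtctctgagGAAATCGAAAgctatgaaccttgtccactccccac
Ifi207, chr1:173741816-173741875, minus strand: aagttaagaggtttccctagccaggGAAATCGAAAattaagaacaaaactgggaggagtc
Mndal, chr1:173880189-173880248, minus strand: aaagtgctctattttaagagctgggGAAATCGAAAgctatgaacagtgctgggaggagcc
Ifi211, chr1:173913049-173913108, minus strand: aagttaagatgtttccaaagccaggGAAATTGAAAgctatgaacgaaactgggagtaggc
Ifi203, chr1:173942493-173942552, minus strand: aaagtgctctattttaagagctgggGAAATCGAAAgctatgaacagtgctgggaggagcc
Ifi205, chr1:174031855-174031914, minus strand: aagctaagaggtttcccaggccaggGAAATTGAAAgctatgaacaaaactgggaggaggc
The stretches of Ifi213 and Ifi208 were identical over 60 bases and that of Ifi206 differed from them at 1, and the stretches of Mndal and Ifi203 were identical. Over all 28 pairs, 28 to 60 of the 60 bases were the same. Ifi205 and a second Mndal start site each had 1 more match on the opposite strand. The window of Ifi209 held no match of these letters.

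The libraries held 3614967 to 45581528 counts on genes, with a median of 18333377. H3f3a was at 33.6 to 93.8 CPM (counts scaled to library size with TMM factors within each experiment) in the 36 WT libraries and at 1.21 to 15.3 CPM in the 34 cKO libraries. Lyz2 was at 4465 CPM or more in WT and at 81.9 CPM or less in cKO. H3f3b was at 16.7 to 67.8 CPM in the cKO libraries of the antibody cultures, against 295 to 468 CPM in WT there. It was at 149 to 361 CPM in the cKO libraries of the other experiments (WT 181 to 536 CPM), where the ranges of the genotypes overlapped. The study describes the deletion of H3f3b as variable, complete or partial, so the cKO groups may differ in how much H3.3 was lost. In cKO:Irf7KO H3f3b was at 71.9 to 147 CPM, below the 187 to 220 CPM of the cKO sets. In the double knockouts, Sting was at 5.01 to 6.1 CPM in cKO:StingKO against 68.2 to 91.6 CPM in the 9 cKO libraries of the sets, and Irf7 at 98.3 to 112 CPM in cKO:Irf7KO against 249 to 470 CPM. The 9 WT libraries of the sets held 36.6 to 155 CPM of Irf7, so its count does not by itself show the knockout. Mavs at 37.2 to 37.9 CPM in cKO:MavsKO lay within the 36 to 51.6 CPM of the 9 cKO libraries. The deleted part of Mavs is not given in the labels, so its whole-gene count does not check the knockout. The study itself reports that it verified the Sting, Mavs and Irf7 deletions by genomic PCR, quantitative RT-PCR and RNA-seq tracks. The summed level of 8 macrophage markers was 2956 CPM or more in all placed libraries. Replicate 1 of the IFNγ-treated cKO group stood apart: it had 3614967 counts, the fewest of all, 57.1% of its reads were unmapped, and its 5 stromal markers summed to 349 CPM against 8.36 to 111 CPM in the other placed day 8 libraries. The libraries numbered 1 of the day 5 groups and of WT day 7 had higher levels of most members than the other 2 of their group. Each comparison that includes any of these groups was also run with that library left out, though not every such result is printed. Other comparisons of the same experiment share the estimate of the spread and were not rerun in that way.

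On day 3 of culture, when the bone marrow cells are still progenitors, 9 of the 10 members were far higher in cKO than in WT cells. The 9 members that passed the filter on low counts were called higher (edgeR quasi-likelihood test, adjusted p under 0.05 over all genes tested), against 5.19% of the 15955 genes tested. Their median log2 fold change was 4.48, compared with 0.04 over all genes, and each cKO library lay above each WT library for all 9. The share of all genes whose libraries separate in this way was not counted, for this or any later comparison. Later counts of members called in alternative fits mostly lack the share of all genes called, and they bear only on stability. Ifi208 was near 0 in both genotypes and was not tested. In bulk RNA, a higher level per cell and a larger share of cells that express a gene cannot be told apart.

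Ifi213, also named Pydc4 for its pyrin domain, had 0, 0.176 and 0.0562 CPM in the 3 WT libraries and 30.7, 32 and 61.3 CPM in the cKO libraries. It had the largest difference of the family, with a log2 fold change of 8.88 (SE 1.18, adjusted p = 0.000399, edgeR). Ifi206, its neighbour with an almost identical promoter stretch, had 0.409, 0.117 and 0.0562 CPM in WT and 43.1, 32.1 and 67.5 CPM in cKO. Both were close to silent in WT and above 30 CPM in each cKO library. The log2 fold change of Ifi206 was 7.97 (SE 1.35, adjusted p = 0.00197). Because the WT values of both were at a handful of reads, their fold changes depend on small counts. Ifi205, known as the myeloid differentiation gene D3, was at 0.0682, 0.117 and 0 CPM in WT and at 6.22, 3.83 and 6.33 CPM in cKO, a log2 fold change of 6.33 (SE 1.28, adjusted p = 0.00603). The WT value of Ifi205 rests on 3 counts in all 3 libraries, and the ratio of summed CPM was 91.8 with an exact counting interval (95%, Clopper-Pearson) of 31.1 to 448, which covers counting error only.

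Ifi204, which encodes the DNA sensor p204 and is the member most often set beside human IFI16, had 8.32, 5.22 and 5.56 CPM in WT and 138, 118 and 158 CPM in cKO. Its log2 fold change was 4.44 (SE 0.60, adjusted p = 0.000429). Ifi209, also named Pyhin1, had 3.41, 6.28 and 5.9 CPM in WT and 102, 93.1 and 158 CPM in cKO. These 2 genes thus rose from a low level to over 90 CPM in all cKO libraries. Ifi211, also named Mnda, had 2.45, 1.23 and 1.35 CPM in WT against 36.8, 30.6 and 44.2 CPM in cKO, and the log2 fold changes of Ifi209 and Ifi211 were 4.49 (SE 0.70) and 4.48 (SE 0.76).

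The remaining 3 members were expressed in WT progenitors and differed less. Ifi203, a nuclear family member, had 9.95, 10.4 and 7.86 CPM in WT and 84.4, 69.6 and 122 CPM in cKO, a log2 fold change of 3.29 (SE 0.43, adjusted p = 0.000359). Mndal, named for its likeness to the human myeloid nuclear differentiation antigen, had 8.79, 15.4 and 9.55 CPM in WT and 66.1, 61.6 and 92 CPM in cKO, a log2 fold change of 2.70 (SE 0.42, adjusted p = 0.0011). Ifi207, or Pyhin-A, was the member with the highest WT level, at 54.1, 57.1 and 55.5 CPM, and it reached 118, 138 and 210 CPM in cKO. Its log2 fold change of 1.48 (SE 0.25, adjusted p = 0.00172) was the smallest. Markers of other cells were measured in the same libraries. The 5 B cell markers summed to 11.6 to 12.7 CPM in WT and 24.9 to 52.9 CPM in cKO, the 4 peritoneal macrophage markers to 7.23 to 9.15 CPM and 16.8 to 18.7 CPM, and the 8 neutrophil markers to 1583 to 3038 CPM and 2732 to 4205 CPM. None of these genes was at 0 in all libraries of a group, and their part in the result was not tested. The 8 macrophage markers summed to 3165 to 4832 CPM in WT and 3176 to 3948 CPM in cKO.

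**Figure D1:**
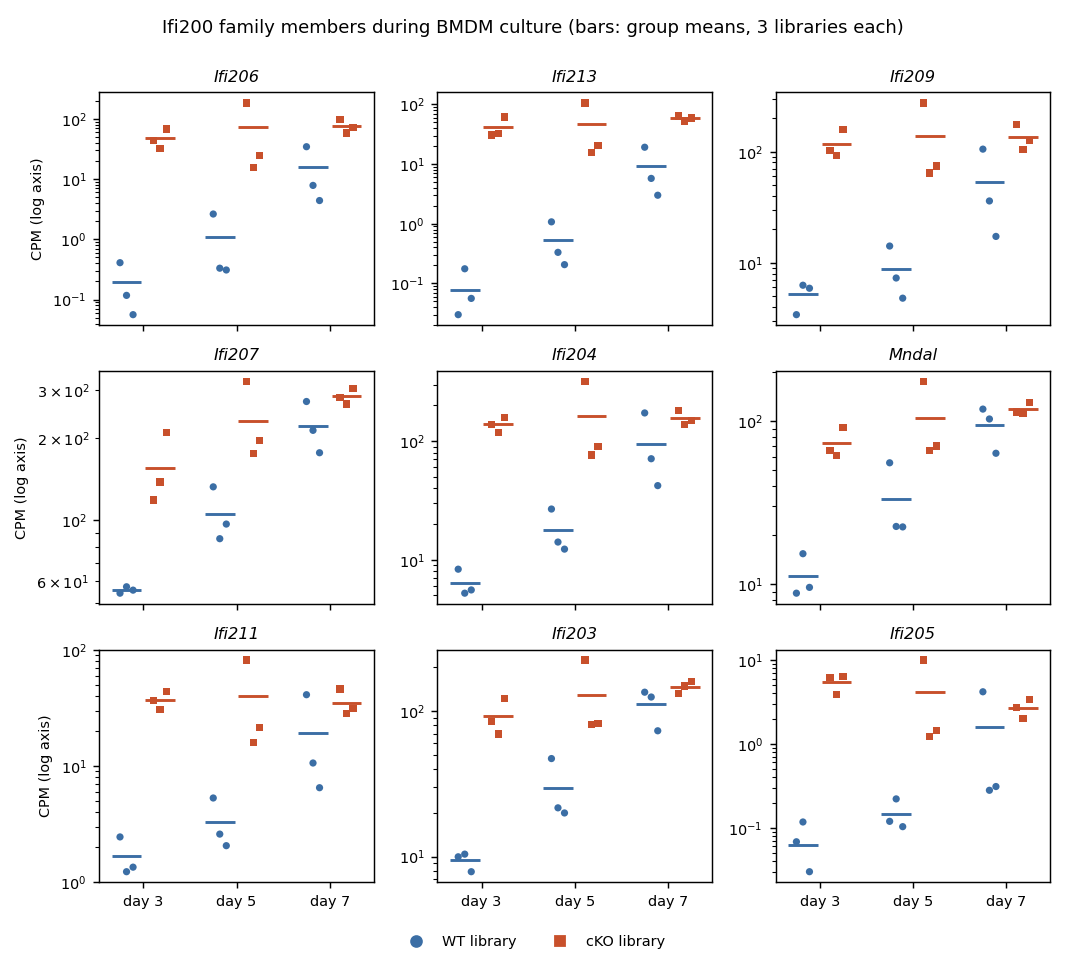
CPM (log axis) of the 9 members tested in the time course, by day of culture, with 1 point per library, WT as circles, cKO as squares and bars for the group means of 3 libraries; a value of 0 is drawn at 0.03 CPM. On days 3 and 5 each cKO point lies above each WT point, and on day 7 the points of 7 of the 9 members overlap.

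On day 5 the same 9 members were called higher in cKO, against 2.2% of all genes, with a median log2 fold change of 3.59. Again no library of 1 genotype overlapped with the other, a separation that was not counted over all genes. Ifi204 had 26.7, 14.1 and 12.3 CPM in WT and 318, 76.4 and 90.7 CPM in cKO (log2 fold change 3.19, SE 0.55, adjusted p = 0.00741, edgeR). Ifi213 had 1.07, 0.331 and 0.206 CPM in WT and 105, 15.8 and 20.4 CPM in cKO. In both genotypes the library numbered 1 was the highest. There were 4 calls without cKO replicate 1, 2 without WT replicate 2 and 1 without WT replicate 3. All 9 calls were made when the 6 libraries numbered 1 were all left out. The 5 stromal markers summed to 13.2 to 42.3 CPM in WT and 67.6 to 95.4 CPM in cKO on day 5, and to 4.38 to 40.5 CPM and 86.4 to 125 CPM on day 7, and their part in the results was not tested.

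By day 7 the difference was smaller and none of the 9 members was called by edgeR, against 1.4% of genes called in either direction. At an unadjusted p under 0.05 there were 3 members, beside 2629 of the 15955 genes tested. DESeq2 called 1 member, and leaving out WT replicate 1 gave 3 calls. Ifi204 had 173, 71 and 42.1 CPM in WT and 182, 138 and 148 CPM in cKO. WT replicate 1 reached the cKO level, and the other 2 WT libraries stayed below it. Ifi206 had 34.4, 7.84 and 4.39 CPM in WT and 96.3, 58.2 and 70.8 CPM in cKO, and Ifi213 had 19.1, 5.74 and 3 CPM in WT and 63.8, 52.3 and 58.7 CPM in cKO. These were the only 2 members whose genotypes did not overlap on day 7. Their log2 fold changes were 2.27 (SE 0.86, adjusted p = 0.192) and 2.64 (SE 0.69, adjusted p = 0.0692). In the edgeR fit with a replicate block over the whole time course they were 2.78 (adjusted p = 0.0297) and 2.99 (adjusted p = 0.0178). The labels give no pairing. The numbers were taken as pairs on day 7 from a correlation in these data, and they did not meet that rule on day 5. Without the 6 libraries numbered 1, 6 of the 9 members were called higher on day 7, and the 3 left were Ifi203, Ifi207 and Mndal. These alternative counts are given without the share of all genes called in the same fit, so they bear only on stability.

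Between day 3 and day 7 all 9 members rose in WT cells, against 12.3% of all genes, with log2 fold changes from 1.99 in Ifi207 (SE 0.25, adjusted p = 0.000127) to 6.73 in Ifi213 (SE 1.24, adjusted p = 0.00175). In the same WT libraries the 8 neutrophil markers went from 1583 to 3038 CPM down to 74.1 to 131 CPM in sum, with 8 of 8 called lower, and 4 of the 5 B cell markers were called lower, and the part of these cells in the rise was not tested. In cKO cells only Ifi207 was called, with a log2 fold change of 0.87 (SE 0.24, adjusted p = 0.0263), against 6.32% of genes called higher, and this call was lost without cKO day 3 replicate 1 or 2 or without cKO day 7 replicate 2 or 3. The values of the other 8 members in cKO ranged from -1.02 in Ifi205 to 0.70 in Mndal. The difference between the genotype effects of day 7 and day 3 was below 0 for all 9, from -6.24 in Ifi213 to -1.12 in Ifi207, with adjusted p from 0.062 to 0.158 in the interaction test, so none was called; 0.0439% of all genes were. All 9 had an unadjusted p under 0.05 in that test, beside 2480 of the 15955 genes tested. DESeq2 called 8 of the 9, and it also called many more genes in all than edgeR, as given at the end. Without WT day 7 replicate 3 the interaction was called for 5 members, without WT day 7 replicate 1 for 2, and with the replicate block for 5.

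At day 8, 3 of the 10 members were called higher in untreated cKO cells, against 0.505% of genes called higher. For 9 of the 10, both untreated cKO libraries lay above all 3 WT libraries. The share of all genes separated in this way was not counted, and separation is easier with so few libraries. Ifi213 had 1.98, 3.93 and 1.31 CPM in WT and 34.7 and 30.1 CPM in cKO (log2 fold change 3.77, SE 0.53, adjusted p = 0.0095, edgeR). Ifi204 had 79.7, 94.2 and 70.6 CPM in WT and 208 and 181 CPM in cKO (log2 fold change 1.25, SE 0.20, adjusted p = 0.0199). Ifi211 had 11.9, 13.7 and 10.4 CPM in WT and 35.8 and 34.7 CPM in cKO (log2 fold change 1.56, SE 0.19, adjusted p = 0.00485). Ifi206 at 5.49, 4.04 and 3.15 CPM in WT and 42.9 and 40.9 CPM in cKO was also separated, with a log2 fold change of 3.32 (SE 0.63) and an adjusted p of 0.051. The calls were fragile, and the reason was not tested. The reported fit took its estimate of the spread from all day 8 groups, the treated cKO libraries included. The alternative counts that follow are given without the share of all genes called, so they bear only on stability. There were 0 calls without WT replicate 3 or either cKO library, 1 without WT replicate 1 and 2 without WT replicate 2, and 9 were called with no filter on low counts or with only the 2 groups in the fit.

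IFNγ, the type II interferon that activates macrophages, raised the family strongly in WT cells. Of the 10 members 8 were called, against 20% of all genes called higher. All 10 were higher in each treated WT library than in each untreated one, a separation that was not counted over all genes. Ifi205 had 0.658, 0.637 and 0.7 CPM untreated and 163, 222 and 176 CPM with IFNγ, a log2 fold change of 8.10 (SE 0.44, adjusted p = 8.39e-07, edgeR). This was the largest induction of the family. Ifi204 rose from 79.7, 94.2 and 70.6 CPM to 775, 919 and 773 CPM (log2 change 3.34, SE 0.20, adjusted p = 1.36e-06) and became the member with the highest level. The 5 dendritic cell markers summed to 0.956 to 1.65 CPM in untreated and 50.5 to 74.6 CPM in treated WT libraries, and their part was not tested. Ifi213 reached 81.3, 118 and 73 CPM (log2 change 5.25, SE 0.52) and Ifi206 reached 114, 110 and 82.3 CPM (log2 change 4.60, SE 0.62), both above their untreated cKO levels. Ifi207, with 161, 174 and 149 CPM before and 352, 385 and 300 CPM after treatment, changed least and did not pass the test (log2 fold change 1.10, SE 0.50, adjusted p = 0.108).

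**Figure D2:**
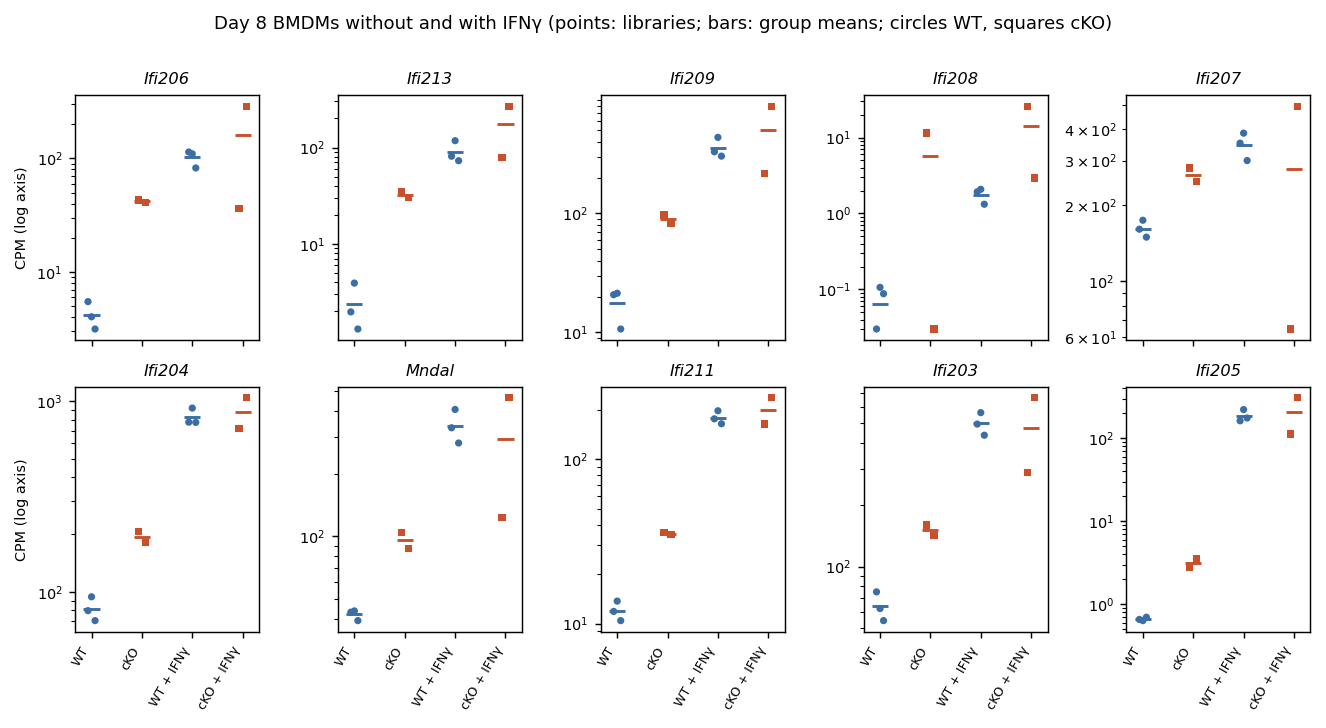
CPM (log axis) of all 10 members in the day 8 libraries, WT as circles and cKO as squares, without and with IFNγ, with 1 point per library and bars for group means; a value of 0 is drawn at 0.03 CPM. The 2 treated cKO libraries lie apart in most panels, and 9 of the 10 members are higher in both untreated cKO libraries than in the untreated WT libraries.

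Between the genotypes in treated cells, none of the 10 members was called by edgeR or DESeq2, against 4.83% of all genes called in either direction by edgeR. At an unadjusted p under 0.05 there were 0 members, beside 3151 of the 13075 genes tested. The log2 fold changes of the members ran from -0.29 in Ifi207 to 2.77 in Ifi208. The 2 treated cKO libraries lay far apart. Ifi206 was at 36.2 CPM in replicate 1, the library that stood apart, and at 287 CPM in replicate 2, and Ifi207 was at 64.6 and 493 CPM. Ifi204 at 720 and 1040 CPM and Ifi211 at 164 and 237 CPM were closer. Without replicate 1, 5 members were called higher in cKO than in WT: Ifi205, Ifi206, Ifi207, Ifi209 and Ifi213, with Ifi206 at a log2 fold change of 1.52 (adjusted p = 0.0012). Without replicate 2, Ifi206 was lower by the same measure, at -1.52 (adjusted p = 0.00175), and Ifi203, Ifi205, Ifi207 and Mndal were also called lower and Ifi208 higher. In both cases the 1 remaining library was taken to vary like the other groups. The share of all genes called is not given for these fits, so they bear only on stability.

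Within cKO, 8 of the 10 members were called higher with IFNγ, against 17.2% of all genes. Ifi205 again changed most, from 2.76 and 3.52 CPM to 113 and 308 CPM (log2 change 6.09, SE 0.46, adjusted p = 1.35e-05), followed by Ifi211 at 2.52 (SE 0.21, adjusted p = 2.31e-05). Ifi206 was called although its treated replicate 1, at 36.2 CPM, lay below both untreated libraries. The count was 4 without untreated cKO replicate 2, 9 without treated cKO replicate 1 and 7 without treated cKO replicate 2, of which 1, Ifi207, was called lower. The IFNγ effect was smaller in cKO than in WT for all 10 members, by up to 3.41 on the log2 scale. None passed the interaction test (adjusted p from 0.222 to 0.713, 0% of all genes called). At an unadjusted p under 0.05 there were 8 members, beside 1105 of the 13075 genes tested, and DESeq2 called 2 members. Without replicate 1 of the treated cKO group 2 members passed it, Ifi206 and Ifi211, and without replicate 2 the number was 9.

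Peritoneal macrophages are resident cells taken from the body cavity, and most of the family was expressed in them in both genotypes. These libraries were made with a low-input kit, and the 4 peritoneal macrophage markers summed to 3556 to 4330 CPM in them. Ifi213 was the 1 member called, against 0.591% of genes called higher, with 1.01, 0.639 and 1.59 CPM in WT and 6.12, 5.17 and 9.62 CPM in cKO (log2 fold change 2.62, SE 0.41, adjusted p = 0.0285, edgeR). Ifi206 had 3.15, 1.14 and 1.87 CPM in WT and 11.8, 5.07 and 16.5 CPM in cKO, with a log2 fold change of 2.46 (SE 0.50, adjusted p = 0.0787). Its libraries did not overlap, and with the replicate block, where the numbers were taken as pairs, it was called as well (log2 fold change 2.42, adjusted p = 0.0371, edgeR). The other 7 tested members had log2 fold changes between 0.04 and 0.44. Ifi204 was at 111, 118 and 95.2 CPM in WT and 128, 99.9 and 136 CPM in cKO, and Ifi205 was at 4.38, 7.24 and 14.6 CPM in WT and 13.7, 3.27 and 11.7 CPM in cKO. The call of Ifi213 was lost without WT replicate 1 or 2 or without cKO replicate 1 or 3.

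The antibody cultures asked how much of the difference goes through the type I interferon receptor, which the IFNAR1 antibody blocks. Without antibody, 8 of 9 tested members were called higher in cKO, against 3.39% of all genes, and with the control antibody all 9 were, against 2.88%. With the IFNAR1 antibody 4 were called higher, Ifi204, Ifi205, Ifi211 and Ifi213, against 0.477% of all genes. The median log2 fold changes over the 9 members were 2.66, 2.48 and 1.59 in the 3 arms. The last count was not stable: it was 0 without WT replicate 1 or 2, 1 without cKO replicate 1 or 2, 2 without cKO replicate 3 and 5 without WT replicate 3.

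Ifi204 was at 24.2, 20.5 and 20 CPM in WT with the control antibody and at 9.69, 11.7 and 18 CPM in WT with the IFNAR1 antibody. In cKO it was at 93.8, 88.5 and 69.5 CPM with the control antibody and at 40.5, 29.6 and 28.5 CPM with the IFNAR1 antibody. The cKO level fell in all 3 blocked libraries but stayed above all WT libraries with either antibody. The fall in cKO had a log2 fold change of -1.35 (SE 0.28, adjusted p = 0.0194, edgeR), and the remaining difference from blocked WT was 1.33 (SE 0.29, adjusted p = 0.0475). Ifi209 at 39.6, 53.7 and 28.1 CPM with the control antibody and 13, 8.49 and 9.44 CPM with the IFNAR1 antibody fell by 1.96 on the log2 scale (SE 0.41, adjusted p = 0.0192). The 5 stromal markers summed to 157 to 291 CPM in cKO with the control antibody and to 41.2 to 84.8 CPM with the IFNAR1 antibody, with none called, and their part in these falls was not tested. Ifi204 and Ifi209 were the members called between the antibodies in cKO, against 1.69% of genes called lower; neither was called without replicate 2 of either cKO group, and 1 was without cKO control replicate 3.

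Ifi205 was at 1.58, 1.81 and 0.519 CPM in cKO with the control antibody and at 1.71, 1.34 and 1.05 CPM with the IFNAR1 antibody, a log2 fold change of 0.08 (SE 0.62, adjusted p = 0.958). Its WT libraries held 0 to 0.113 CPM in both arms, so the difference from WT was 4.62 (SE 0.95) with the control and 5.15 (SE 0.91) with the IFNAR1 antibody on the log2 scale. Each WT arm held 2 counts of Ifi205, and the ratios of summed CPM were 30.1 (counting interval 8.05 to 254) and 44.8 (11.8 to 380). Ifi213 was at 5.3, 5.06 and 2.18 CPM in cKO with the control antibody and at 3.04, 0.943 and 0.667 CPM with the IFNAR1 antibody (log2 fold change -1.39, SE 0.67, adjusted p = 0.265). The difference in antibody effect between the genotypes was not called for any of the 9 members (adjusted p from 0.786 to 0.999 in the interaction test, 0% of all genes called). At an unadjusted p under 0.05 there was 1 member, beside 975 of the 17191 genes tested, and DESeq2 called 0 members.

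The control antibody was also compared with no antibody. In WT, Ifi203 was at 17.9, 13.1 and 9.01 CPM without antibody and at 4.13, 3.06 and 3.94 CPM with the control antibody, and it fell by 1.85 on the log2 scale (SE 0.49, adjusted p = 0.0325, edgeR). Mndal, which overlaps Ifi203 in the genome, went from 23.1, 23.1 and 15.7 CPM to 6.79, 4.59 and 6.77 CPM and fell by 1.77 (SE 0.43, adjusted p = 0.0225). The groups did not overlap for either gene, and these 2 calls stand against 5.63% of genes called lower. There was 1 call without WT no-antibody replicate 1 or 3 and none without WT no-antibody replicate 2 or any control antibody library. No member was called between control and no antibody in cKO, against 1.46% of all genes. The direction was nevertheless shared: 0 of the 9 members had a log2 fold change above 0 (median -0.701), against 50.9% of all genes. The groups did not overlap for 2 members. Ifi213 was at 5.54 to 31.3 CPM in cKO without antibody and at 2.18 to 5.3 CPM with the control antibody. Mndal was at 25.4 to 54.8 CPM and 15.8 to 22.2 CPM. In this cKO comparison, 0 members were called by DESeq2 and 3 had an unadjusted p under 0.05, beside 2068 of the 17191 genes tested. In WT the IFNAR1 antibody gave no member call against the control antibody, beside 9.89% of all genes called. DESeq2 called 2 members, and 4 had an unadjusted p under 0.05, beside 5641 of the 17191 genes tested.

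**Figure D3:**
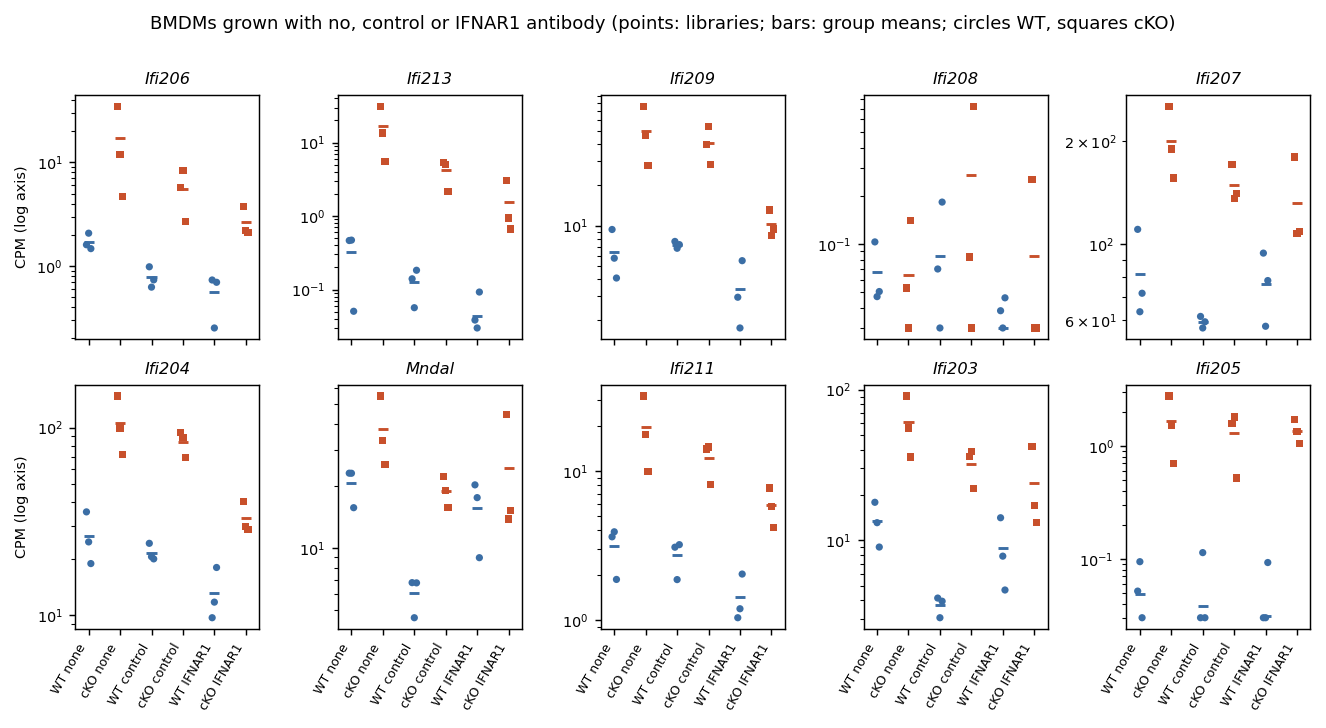
CPM (log axis) of all 10 members in cultures with no, control or IFNAR1 antibody, WT as circles and cKO as squares, with 1 point per library and bars for group means of 3 libraries; a value of 0 is drawn at 0.03 CPM. In Ifi204 and Ifi209 the 3 cKO libraries with the IFNAR1 antibody lie below the 3 with the control antibody and above the WT libraries with the IFNAR1 antibody.

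In the 3 further BMDM sets all 9 tested members were called higher in cKO each time, against 18%, 9.74% and 16.9% of all genes called higher. The median log2 fold changes were 1.64, 1.30 and 1.51. These sets may not be independent. Same-numbered WT libraries of set 1 and set 3 differed by a chi-square per degree of freedom of 25.1, 14.8 and 43.9. WT libraries within set 1 differed by 44.5 to 56.1. In cKO the same-numbered values were 14.5, 13.7 and 21.7, against 7.28 to 18.1 within set 1. Other-numbered pairs of set 1 and set 3 differed by 18.4 to 93.8 in WT and by 14.8 to 34.3 in cKO. In both genotypes replicate 3 of set 3 was nearer to replicates 1 and 2 of set 1 than to its replicate 3. The labels do not say whether the sets share mice, which also bears on the means of the 3 sets used below. Markers of other cells were also higher in cKO, and their part was not tested. In set 1 the neutrophil markers summed to 59.3 to 110 CPM in WT and 196 to 281 CPM in cKO (5 of 7 tested called higher), the dendritic cell markers to 3.22 to 5.68 CPM and 9.82 to 13.1 CPM (4 of 5), and 3 of 5 B cell markers were called higher; the same counts were called in set 3. In set 2, where the neutrophil sums overlapped, 2 of 7 neutrophil, 4 of 5 dendritic cell and 1 of 5 B cell markers were called higher. Ifi206 had 8.54, 2.03 and 4.09 CPM in WT and 63.2, 55.9 and 62 CPM in cKO in set 1 (log2 fold change 3.66, SE 0.32, adjusted p = 9.95e-09, edgeR). In set 2 it had 11.1, 15.4 and 12 CPM in WT and 68.5, 77.9 and 66.1 CPM in cKO (2.46, SE 0.29). The WT level of this gene was thus higher in set 2, and the cKO level was close to that of set 1. Ifi205 had log2 fold changes of 2.77, 3.06 and 3.06 in the 3 sets, and Mndal had the smallest values of set 1 and set 3, at 0.74 and 0.47.

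In the double knockouts the levels stayed above WT. The labels do not tie a double knockout to 1 of the 3 sets, so each was compared with the mean of the 3 cKO sets and of the 3 WT sets. All 9 members were called higher than in WT in cKO:StingKO, cKO:MavsKO and cKO:Irf7KO, against 20.5%, 21.8% and 14.8% of all genes. Each double knockout library also lay above all 9 WT libraries for all 9 members, a separation that was not counted over all genes. Ifi204 was at 162, 208 and 195 CPM in cKO:StingKO, at 132, 165 and 146 CPM in cKO:MavsKO and at 215, 168 and 162 CPM in cKO:Irf7KO, next to 129 to 158 CPM in the 9 cKO libraries. Ifi213 was at 47.6, 60.3 and 53.9 CPM, at 37, 45.2 and 39 CPM and at 48.9, 41.2 and 37.4 CPM, next to 32.7 to 53.4 CPM in cKO.

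Against the mean cKO level, 1 member was called in cKO:StingKO and none in the other 2. Ifi211 was at 44.6, 50 and 48.1 CPM in cKO:StingKO, above the 28.3 to 36.4 CPM of all 9 cKO libraries (log2 fold change 0.57, SE 0.15, adjusted p = 0.00382, edgeR), where 18.9% of all genes were called higher. DESeq2 called 1 member, and 3 had an unadjusted p under 0.05, beside 8012 of the 18083 genes tested. Of the 9 members, 8 had a log2 fold change above 0 (median 0.25), against 52% of all genes. The count was 5 with no filter on low counts or with only the compared groups in the fit, 0 with set 1 alone as the reference and 2 with set 3 alone. The 5 stromal markers summed to 163 to 200 CPM in cKO:StingKO and to 23.1 to 69.3 CPM in the cKO sets, and their part was not tested. In cKO:MavsKO the log2 fold changes of the 9 members ran from -0.12 in Ifi203 (SE 0.13) to 0.61 in Ifi205 (SE 0.25), with 8.79% of all genes called in either direction. In cKO:Irf7KO they ran from -0.32 in Ifi205 (SE 0.27) to 0.30 in Ifi204 (SE 0.15), with 9.85% of all genes called. DESeq2 also called 0 members in both. At an unadjusted p under 0.05 there was 1 member in cKO:MavsKO, beside 3927 of the 18083 genes tested. In cKO:Irf7KO there were 0, beside 4308 genes. A lowered level of a member was not detected in any double knockout, and the SEs leave room for small changes.

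**Figure D4:**
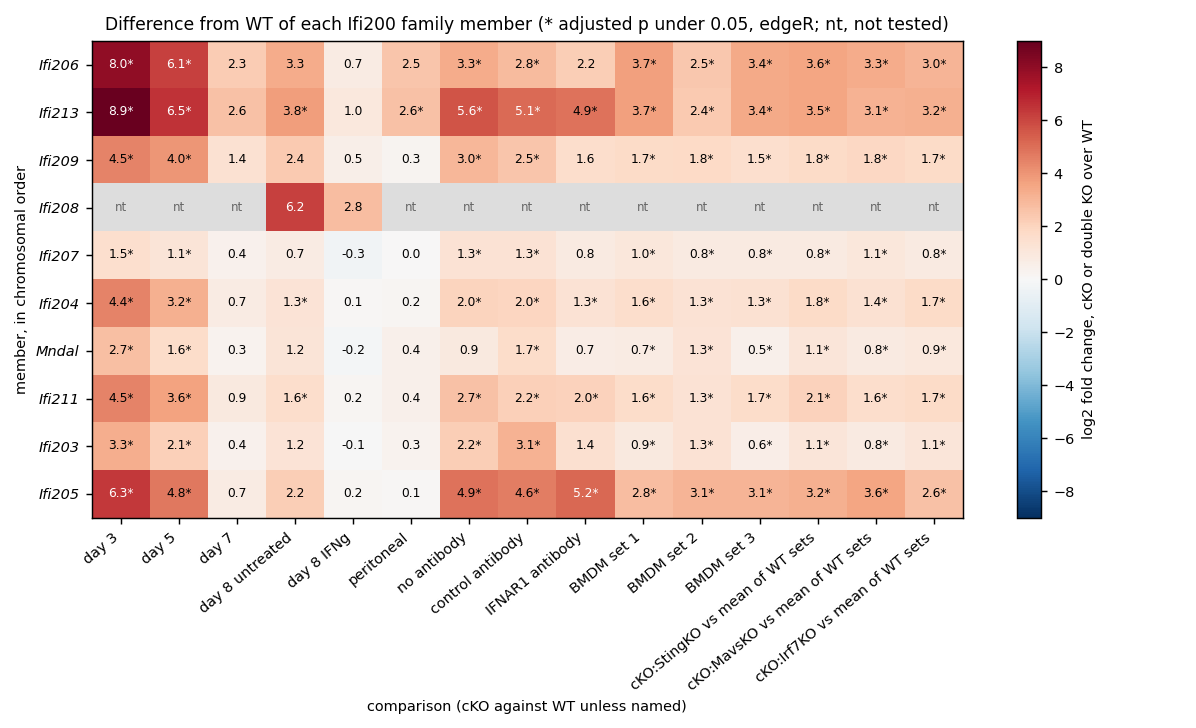
Log2 fold change of cKO or double knockout over WT for each member (rows, in chromosomal order) and comparison (columns), with an asterisk for an adjusted p under 0.05 in edgeR and nt for not tested. All tested members are called on day 3, on day 5, with the control antibody, in the 3 sets and in the 3 double knockouts, and none on day 7 or with IFNγ.

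Per exon length, the members kept a steep order in WT cells. Levels here are CPM per kb of exon that no other gene overlaps in the genome, and they are means over 3 libraries. Sequence that similar copies share was not taken out of these lengths. The values of Ifi211 (72.8% of its 50-base words shared) and Ifi209 (33.7%) may therefore read too low beside Ifi207 (7.29%). In WT on day 3 Ifi207 led at 16.2 ± 0.44 (SD) CPM per kb, followed by Mndal at 3.24 ± 1.04, Ifi204 at 1.79 ± 0.48, Ifi209 at 1.46 ± 0.44 and Ifi203 at 1.41 ± 0.20. For each neighbouring pair from Mndal to Ifi203 the ranges of mean ± 1 SD met. Ifi211 followed at 0.94 ± 0.38, and Ifi206, Ifi205, Ifi213 and Ifi208 were at 0.0636 CPM per kb or less. In cKO on day 3 the order was compressed, with Ifi207 at 45.4 ± 14, Ifi204 at 38.8 ± 5.66 and Ifi209 at 33.2 ± 9.93 within their spread of each other. Ifi205 at 1.31 ± 0.34 and Ifi208 at 0.0206 ± 0.0259 CPM per kb were last. In WT peritoneal macrophages Ifi207 at 54.1 ± 4.48, Ifi204 at 30.3 ± 3.25 and Mndal at 19.1 ± 3.71 CPM per kb led, and with IFNγ in WT Ifi204 moved to the first place at 231 ± 23.5 CPM per kb.

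**Figure D5:**
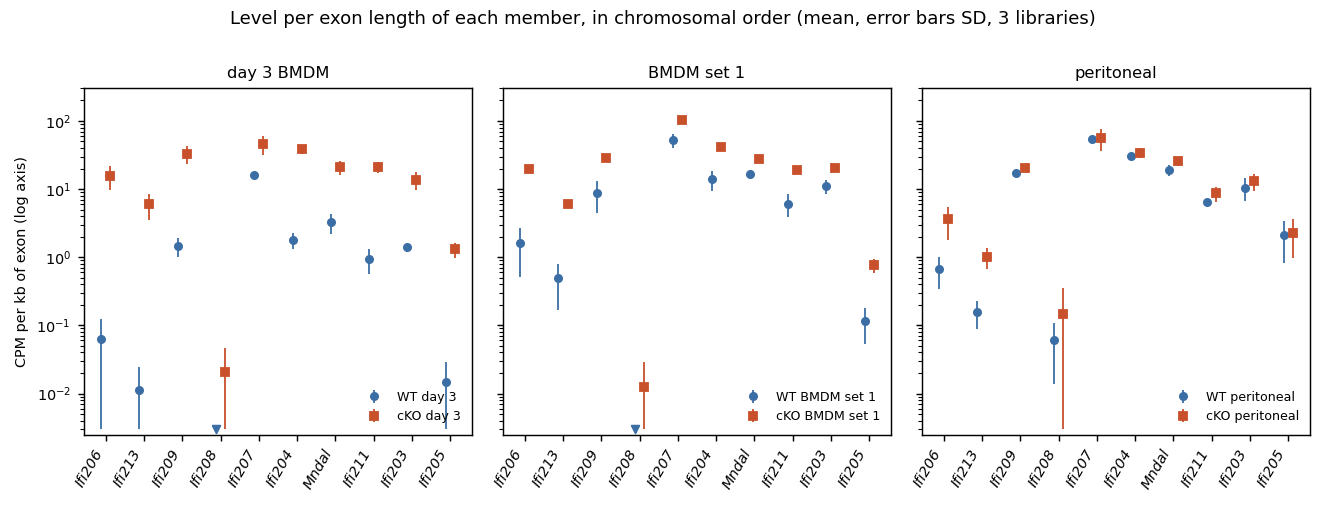
CPM per kb of exon (log axis) of each member in chromosomal order, as group means of 3 libraries with SD, in WT (circles) and cKO (squares) for day 3 BMDMs, BMDM set 1 and peritoneal macrophages; lower error bars are cut at 0.003 CPM per kb and triangles there stand for a mean of 0. Ifi207 is the highest member in all 6 groups and Ifi208 the lowest, and the gap between genotypes is widest for Ifi206 and Ifi213.

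Ifi208, whose other name Pydc3 refers to its pyrin domain, differed from the rest by being almost absent. It was tested only at day 8. It had 0, 0.106 and 0.0875 CPM in untreated WT and 1.93, 2.08 and 1.32 CPM with IFNγ, a log2 fold change of 4.46 (SE 2.01, adjusted p = 0.105, edgeR). In cKO it had 11.5 CPM in replicate 1 and 0 CPM in replicate 2 without treatment, and 26 and 2.94 CPM with IFNγ. Single libraries thus set its genotype difference, which was 6.18 (SE 1.81, adjusted p = 0.307) with all libraries and -2.44 (adjusted p = 1) without untreated cKO replicate 1. In peritoneal macrophages 1 cKO library held 2.01 CPM against 0.071 to 0.562 CPM in WT. Its 60-base promoter stretch was identical to that of Ifi213, which had 30.7 CPM or more in each cKO library on day 3 where Ifi208 had 0.261 CPM or less.

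Other PYHIN genes of the region were measured for comparison: Aim2, Ifi214, Ifi202b and the pseudogene Ifi203-ps. On day 3, 3 of the 4 were tested and all 3 were higher in cKO. Aim2, the inflammasome sensor, had 28.8, 26 and 29 CPM in WT and 45.9, 45.6 and 51.3 CPM in cKO, a log2 fold change of 0.77 (SE 0.11, adjusted p = 0.000692, edgeR), which is below that of all 9 tested members. Ifi214 and Ifi203-ps had 5.36 (SE 1.25, adjusted p = 0.0144) and 3.68 (SE 0.67, adjusted p = 0.00289). Of 47 other annotated genes within 500 kb of the cluster, 4 were tested, and these same 3 were called. Ifi202b had 0.881 to 3.01 CPM in the cKO libraries without antibody, 1.66 to 2.36 CPM with the control antibody and 0.254 to 2.48 CPM with the IFNAR1 antibody, against 0.0471 to 0.555 CPM in the WT libraries of the 3 arms. Outside the antibody cultures it was at 0.901 CPM or less in all placed libraries, with the highest value in cKO:StingKO.

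Other interferon-stimulated genes were counted beside the family. On day 3, 37 of 38 tested canonical interferon-stimulated genes were called higher, with a median log2 fold change of 4.64, against 5.19% of all genes called higher. Their values ran from Ifi27 at 0.13 (SE 0.23, adjusted p = 0.795) and the immunoproteasome subunit Psmb8 at 1.16 (SE 0.23) up to Ifit3b at 7.67 (SE 1.51) and Ifi44 at 8.82 (SE 1.44). Of 21 genes of DNA sensing and inflammasomes 6 were called higher, with a median of 0.52, beside the same 5.19%. The 2 largest values were those of the nucleic acid sensor Zbp1 at 6.0 (SE 1.13, adjusted p = 0.00387, edgeR) and the DNA receptor Tlr9 at 2.45 (SE 0.55), and the 2 lowest were Prkdc at -0.38 and the inflammasome adaptor Pycard at -0.32, neither called. Of 19 genes of interferon signalling 9 were called higher and 1 lower, again beside 5.19% of all genes called higher, from the receptor chain Ifnar1 at -0.42 (SE 0.10) and Irf2 at -0.07 to Usp18 at 5.82 (SE 0.81) and Irf7 at 6.60 (SE 1.04). In peritoneal macrophages 10 of 36 tested canonical genes were called higher, against 0.591% of all genes, with a median of 0.86, where 1 of 9 tested members was called and the median was 0.30.

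Across all 27 groups, the members were correlated. For the 9 members tested in all experiments, the pairwise Pearson correlation of their group means (log2 CPM, centred within each experiment) had a median of 0.894 and a range of 0.689 to 0.989 over 36 pairs. Members of a group share the same libraries and their depth, and similar copies share part of their reads. Ifi211 at 0.989 and Ifi204 at 0.981 were nearest to the mean of the other members, and Ifi207 at 0.849 was farthest. Among 11161 other genes the 5 most like the family mean were Gm4951 (r = 0.985), Zbp1 (0.983), Tgtp2 (0.979), Trim30a (0.978) and Herc6 (0.977).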

How the data were processed

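RNA was depleted of rRNA and made into libraries with a kit that does not mark strand (a low-input kit for peritoneal cells). The authors trimmed reads with Cutadapt, aligned them to mm10 with STAR and deposited STAR's counts per gene, unstranded and by strand; versions are not given in the sources used here. The deposited unstranded counts were used, and the larger strand column held at most 50.75% of stranded counts. Reads that hit several places or genes were not counted by the aligner.

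Each experiment was analysed separately, with all its groups in 1 model. edgeR 4.0.16 (R 4.3.3) was used: filterByExpr (minimum count 10, minimum total 15), TMM factors, and the quasi-likelihood F test, with Benjamini-Hochberg adjustment over all genes tested and a call at an adjusted p under 0.05. Levels are CPM on TMM-scaled library sizes. The pipeline was tested on simulated data. Libraries of 1 group differed by more than counting noise (chi-square per degree of freedom of 3.48 or more), so none was merged. The 2 day 8 libraries whose title and library name disagree were placed in no group.

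Same-numbered libraries were taken as paired where the correlation of their deviations from the group means was over 0.1 in every pair, which held in 6 of 20 comparisons: cKO against WT on days 3 and 7 and in peritoneal cells, cKO day 7 against day 3, IFNγ in WT, and control against no antibody in WT. This rule used the same data, since the labels give no pairing, and the main tests had no block. Alternatives were RLE factors, DESeq2 1.42.0, no filter, the larger strand column, only the compared groups, a replicate block, a minimum log2 fold change of 1, single sets as reference, and leaving out each library. All 10 members were named; list genes were named by the 2 largest and 2 smallest values on day 3, and like genes by correlation. Members, gene lists and tests were chosen with earlier results of these data known.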

Additional observations from a re-analysis of the deposited data

Results flagged for a closer look

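The 2 day 8 libraries that were left out of all groups held high family levels. In the first, 9 of the 10 members, all but Ifi208, lay above the highest untreated WT library, with Ifi204 at 161 CPM, Ifi213 at 24.9 CPM and Ifi205 at 2.29 CPM, and 0 lay above both untreated cKO libraries. In the second, all 10 members lay above the highest untreated WT library and above all WT libraries treated with IFNγ, with Ifi204 at 1049 CPM, Ifi213 at 298 CPM and Ifi205 at 338 CPM. Both are flagged because they hold signal outside the libraries compared in the report. The title and the library name of each point to different groups, and no group was inferred from these values.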

How the results depend on the processing

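Of 446 alternative counts of called members, 368 were within 1.5 times the reported count. The values of the 9 members on day 3, in the 3 sets against WT and in the double knockouts against WT kept their calls and direction in all alternatives run except the minimum log2 fold change of 1 in the latter groups (6 to 8 calls) and single members lost in set 3. With no filter on low counts, the number of members called went from 0 to 2 on day 7, from 0 to 9 for the day 7 minus day 3 interaction, from 3 to 9 in untreated day 8 cells, from 0 to 2 between genotypes with IFNγ, from 0 to 9 for the IFNγ interaction, from 1 to 2 in peritoneal cells, from 0 to 2 for IFNAR1 against control antibody in WT, from 0 to 1 for control against no antibody in cKO, from 1 to 5 in cKO:StingKO against cKO and from 0 to 1 in cKO:MavsKO and in cKO:Irf7KO against cKO. DESeq2 gave 1 on day 7, 8 and 2 for these 2 interactions, 7 in untreated day 8 cells, 2 in peritoneal cells and 2 for IFNAR1 against control antibody in WT. With only the compared groups in the fit, the count was 1 in place of 9 on day 5, 4 in place of 1 for cKO day 7 against day 3, 9 in untreated day 8 cells, 3 in place of 8 for IFNγ in cKO, 0 in place of 4 with the IFNAR1 antibody, 1 for control against no antibody in cKO, 5 in cKO:StingKO against cKO and 1 in cKO:MavsKO and in cKO:Irf7KO against cKO. The larger strand column gave 1 on day 7, 0 in peritoneal cells and 1 with the IFNAR1 antibody. Asking for a log2 fold change of at least 1 as well left 0 for cKO day 7 against day 3 and 0 in cKO:StingKO against cKO, where set 1 alone as reference gave 0 and set 3 alone gave 2. Shares of all genes called are not printed beside these alternative counts, which therefore bear only on stability. The cause of these moves was not tested.

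With the replicate block, the count was 2 on day 7, 5 for the day 7 minus day 3 interaction and 2 in peritoneal cells, where the numbers were taken to pair the libraries in the genotype comparisons. Where they shared only a number, it was 2 for IFNAR1 against control antibody in WT and 1 for control against no antibody in cKO, and Ifi207 with IFNγ in cKO had a log2 fold change of -0.18 in place of 0.10. Crossing the numbers of that comparison, chosen after seeing the data, gave -0.12 and 7 members called in place of 8. Leaving out the 6 time course libraries numbered 1, also chosen after seeing the data, gave 6 calls on day 7 and 6 for the interaction.

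Leaving out 1 library at a time, the number of members called ran from 1 to 9 on day 5, 0 to 3 on day 7, 0 to 1 for cKO day 7 against day 3, 0 to 5 for the day 7 minus day 3 interaction, 0 to 2 in untreated day 8 cells, 4 to 9 for IFNγ in cKO, 0 to 6 between genotypes with IFNγ, 0 to 9 for the IFNγ interaction, 0 to 1 in peritoneal cells, 0 to 1 for control against no antibody in WT, 0 to 2 for IFNAR1 against control antibody in cKO, 0 to 4 for the same in WT and 0 to 5 with the IFNAR1 antibody. The sign of some log2 fold changes turned. Between genotypes with IFNγ the ranges were -0.82 to 0.44 for Ifi203, -0.75 to 0.75 for Ifi205, -1.52 to 1.52 for Ifi206, -2.45 to 0.54 for Ifi207, -0.75 to 1.19 for Ifi209, -0.22 to 1.59 for Ifi213 and -1.49 to 0.47 for Mndal. For IFNγ in cKO they were -2.06 to 0.93 for Ifi207, -0.97 to 9.70 for Ifi208 and -0.24 to 2.80 for Ifi206. Ifi208 ran from -2.44 to 7.15 in untreated day 8 cells and from -5.44 to 5.26 for the IFNγ interaction.

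Over all genes, 165 of 446 alternative counts differed from the reported one by over 1.5 times, among them 7 against 442 with DESeq2 for the day 7 minus day 3 interaction, 223 against 697 on day 7, 80 against 184 in untreated day 8 cells, 120 against 339 in peritoneal cells and 116 against 310 with the IFNAR1 antibody. No mean level of a member moved by over 1 SD with RLE factors (0 of 270). Precision is limited by groups of 2 or 3 libraries, by the few counts of Ifi205, Ifi206, Ifi208 and Ifi213 in WT, and by reads that similar copies share.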
